A study of Rattus norvegicus with 24 samples.

Results

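Extracellular matrix, integrin and matrix protease genes were followed through the differentiation of primary rat oligodendrocyte precursor cells (OPCs) into oligodendrocytes (OLs), with and without dolutegravir (DTG), an inhibitor of the HIV integrase. The group holds 34 of the 32883 genes counted. Members were picked by symbol (collagens, laminins, integrins, metalloproteinases and their inhibitors, fibulins, fibrillins, thrombospondins, ADAMTS proteases other than Adamts4, and a few further matrix genes) from a supplementary table of the study, used only to pair identifiers with symbols. That table, as held here, lists 1999 identifiers that fell in DMSO-treated OLs relative to DMSO-treated OPCs, so every member was chosen on the DMSO-treated libraries and matrix genes that rose could not be members. The fall in the DMSO-treated cells is therefore a description and carries no test here, while the untreated and the DTG-treated libraries were not used to choose the members. One member, Itgb3bp, carries the integrin name although its product is a nuclear and centromere protein, and Adamtsl3 encodes an ADAMTS-like protein without a protease domain.

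RNA was sequenced from 24 libraries in 6 groups of 4. OPCs were collected after 24 hours in proliferation medium with FGF and PDGF, either untreated, with the vehicle DMSO at 0.04%, or with 8 µM DTG. OLs had the same 24 hours and then 72 hours in a differentiation medium with thyroxine and without these growth factors, untreated or with DMSO or DTG throughout. Stage and medium therefore changed together and cannot be told apart, and per the study replicates came from cultures of independent litters. The labels give no DMSO content for the DTG-treated libraries, so drug and any vehicle cannot be told apart in DTG-treated against untreated cells. In bulk RNA, fewer cells of a type and less RNA per cell cannot be told apart.

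The extracellular matrix is the network of secreted collagens, laminins, fibronectin, fibrillins and proteoglycans around cells, and integrins are the paired alpha and beta chains through which cells hold on to it. Matrix metalloproteinases and ADAMTS proteases cut matrix proteins, and TIMP proteins inhibit the metalloproteinases. In the oligodendrocyte lineage, laminin and fibronectin are known as substrates for OPC adhesion, survival and migration, integrins with the alpha V chain are known from OPCs, and the proteoglycan NG2, encoded by Cspg4, is a standard OPC marker.

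Col4a1 and Col4a2, which encode the chains of the main basement membrane collagen, are neighbours that read away from each other, and Nid1 encodes nidogen, which links this collagen to laminin. Their promoter windows are shown because these 3 genes make up much of the basement membrane set and the same genes return in the comparison of DTG-treated with other OLs. RefSeq windows of 300 bases (250 before and 50 after the gene start, build GRCr8) could be matched by symbol for 29 of the 34 members. Capitals mark the GC box, GGGCGG, or its reverse complement. They also mark the letters CCAAT, the CCAAT box, or their reverse complement.
Col4a1, chr16:84885347-84885646, plus strand: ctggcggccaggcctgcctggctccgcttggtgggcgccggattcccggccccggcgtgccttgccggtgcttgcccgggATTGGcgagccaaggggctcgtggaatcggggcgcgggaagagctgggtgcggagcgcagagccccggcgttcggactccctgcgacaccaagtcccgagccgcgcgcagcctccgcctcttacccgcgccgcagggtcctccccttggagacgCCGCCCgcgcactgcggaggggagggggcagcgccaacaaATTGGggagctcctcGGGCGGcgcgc
Col4a2, chr16:84885471-84885770, minus strand: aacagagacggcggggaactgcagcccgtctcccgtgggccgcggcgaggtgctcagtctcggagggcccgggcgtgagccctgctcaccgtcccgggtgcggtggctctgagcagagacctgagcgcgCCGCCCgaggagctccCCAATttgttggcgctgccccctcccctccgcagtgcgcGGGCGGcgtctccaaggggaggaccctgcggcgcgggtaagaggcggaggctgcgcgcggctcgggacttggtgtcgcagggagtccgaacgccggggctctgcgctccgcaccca
Nid1, chr17:93069036-93069335, plus strand: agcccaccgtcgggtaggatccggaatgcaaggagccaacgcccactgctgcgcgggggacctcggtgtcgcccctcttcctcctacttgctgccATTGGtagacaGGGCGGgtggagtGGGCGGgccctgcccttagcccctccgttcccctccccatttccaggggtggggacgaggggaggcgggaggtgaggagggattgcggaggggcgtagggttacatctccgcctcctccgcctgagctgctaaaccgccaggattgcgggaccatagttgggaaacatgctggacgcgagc
In RefSeq the Col4a1 and Col4a2 starts lie 77 bases apart and their windows share 176 bases, so the motifs in the shared stretch belong to both. In the annotation of the count files the models of these 2 genes start 83601 bases apart. A GC box stood in 18 of the 29 member windows (62.1%) against 33.1% of all 33469 windows, and a CCAAT box in 11 (37.9%) against 37.5%. TATAAA was in 2 member windows (6.90%, all windows 14.2%), GGAATG, the TEAD motif, in 4 (13.8%, all windows 14.2%), and TGANTCA, the AP-1 motif, in the Col6a1 window alone (3.45%, all windows 7.33%). Both strands were searched, matches of different motifs may overlap, and a match is a description of these letters in this window. Windows for Adamts19, Fbln1, Fn1, Mmp16 and Mmp2 were not used.

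Library depth ran from 13241279 to 18499994 gene counts. The members took 0.507% ± 0.017 (SD, n = 3) of them in untreated OPCs and 0.105% ± 0.017 (n = 3) in untreated OLs, 0.519% ± 0.030 (n = 4) and 0.105% ± 0.011 (n = 4) with DMSO, and 0.511% ± 0.052 (n = 4) and 0.123% ± 0.017 (n = 4) with DTG. This gave 63479 to 96736 counts on members in an OPC library and 11291 to 21788 in an OL library. Replicate 3 of the untreated OPCs and of the untreated OLs was counted on another gene annotation, in which 1 of the 34 members kept its exonic length, so these libraries were left out of the main comparisons and untreated groups hold replicates 1, 2 and 4 (n = 3).

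The OPC libraries were spread along the first principal component, and the 3 with the highest scores are called the libraries that stood apart. On the first principal component of the 11 OPC libraries (52.2% of the variance), DMSO-treated replicate 3 and DTG-treated replicates 2 and 3 had scores of 51.2, 68.3 and 42.9, while the other OPC libraries lay between -62.7 and 17.0. The lowest scores were those of DMSO-treated replicate 4 (-62.7) and untreated replicate 4 (-43.8). With untreated replicate 3 left out, every OPC library numbered 3 in the main comparisons is among the libraries that stood apart. The second component (21.7%) set replicate 1 of each treatment (39.5, 41.5 and 39.0) apart from all other OPC libraries, which lay at or below -5.86. Counts of members in the DTG comparisons that use OPCs are given with and without the 3 libraries of the first component. This setting was chosen after seeing the data. It keeps only replicates 1 and 4 of the DTG-treated OPCs, so a lower count in it may reflect fewer libraries.

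The label of the cells was checked against markers whose identifiers carry a symbol. Of the OL markers, Mbp, a myelin protein gene, rose by 4.73, Mog by 3.20 and Enpp6 by 5.10 on the log2 scale from untreated OPCs to untreated OLs, all called. The OPC markers that could be named, Pdgfra and the member Cspg4, were both called lower in OLs. Most symbols came from genes that fell in DMSO-treated OLs, so this fall was largely fixed by the naming and is no check of the label. Astrocyte and endothelial markers could not be named. Of the microglia markers Cd68 was named, at 1.17, 1.998 and 0.9305 CPM in untreated OPCs and 0.479, 0.0839 and 0.222 CPM in untreated OLs.

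With differentiation most members fell in both sets of libraries that the choice of genes had not used. A gene was called where edgeR's quasi-likelihood test gave an adjusted p under 0.05 and the log2 fold change was over 1 in size. In untreated OLs against untreated OPCs 29 of the 34 members were called lower and none higher, with 33 tested, where 11.7% of all 13110 genes tested were called lower and 10.9% higher. In DTG-treated OLs against DTG-treated OPCs 31 were called lower and none higher, with 34 tested, where 22.9% of all 13171 genes were called lower and 16.4% higher. Because members were chosen for a fall in cells of the same stages, a fall in the other treatments repeats the measure in other libraries of the same kind of culture. The median log2 fold change was -2.09 over the 33 members tested in untreated cells and -1.78 over the 34 in DTG-treated cells, and over all genes tested it was -0.02 and -0.11. Under scaling to the ERCC spike-in 27 and 34 members were called lower with medians of -2.44 and -3.10, beside 1348 genes lower and 447 higher of 13110 in untreated cells and 7860 lower and 467 higher of 13171 with DTG. The members called lower in both numbered 28. Adamts12, Itga8, Lama1 and Lamb3 were tested and not called in the untreated cells, Adamts6 was too low to be tested there, and Col6a1, Lama1 and Lamb3 were not called with DTG.

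The untreated OLs lay wholly below the untreated OPCs for 31 of the 33 members tested, where 26.6% of all genes did so. The DTG-treated OLs lay wholly below the DTG-treated OPCs for 30 of the 34, where 26.8% of all genes did so. Without the 3 OPC libraries that stood apart the DTG count remained 31, with Adamts12 no longer called and Lamb3 called. In that setting 2205 of 13522 genes were called lower and 1989 higher.

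**Figure D1:**
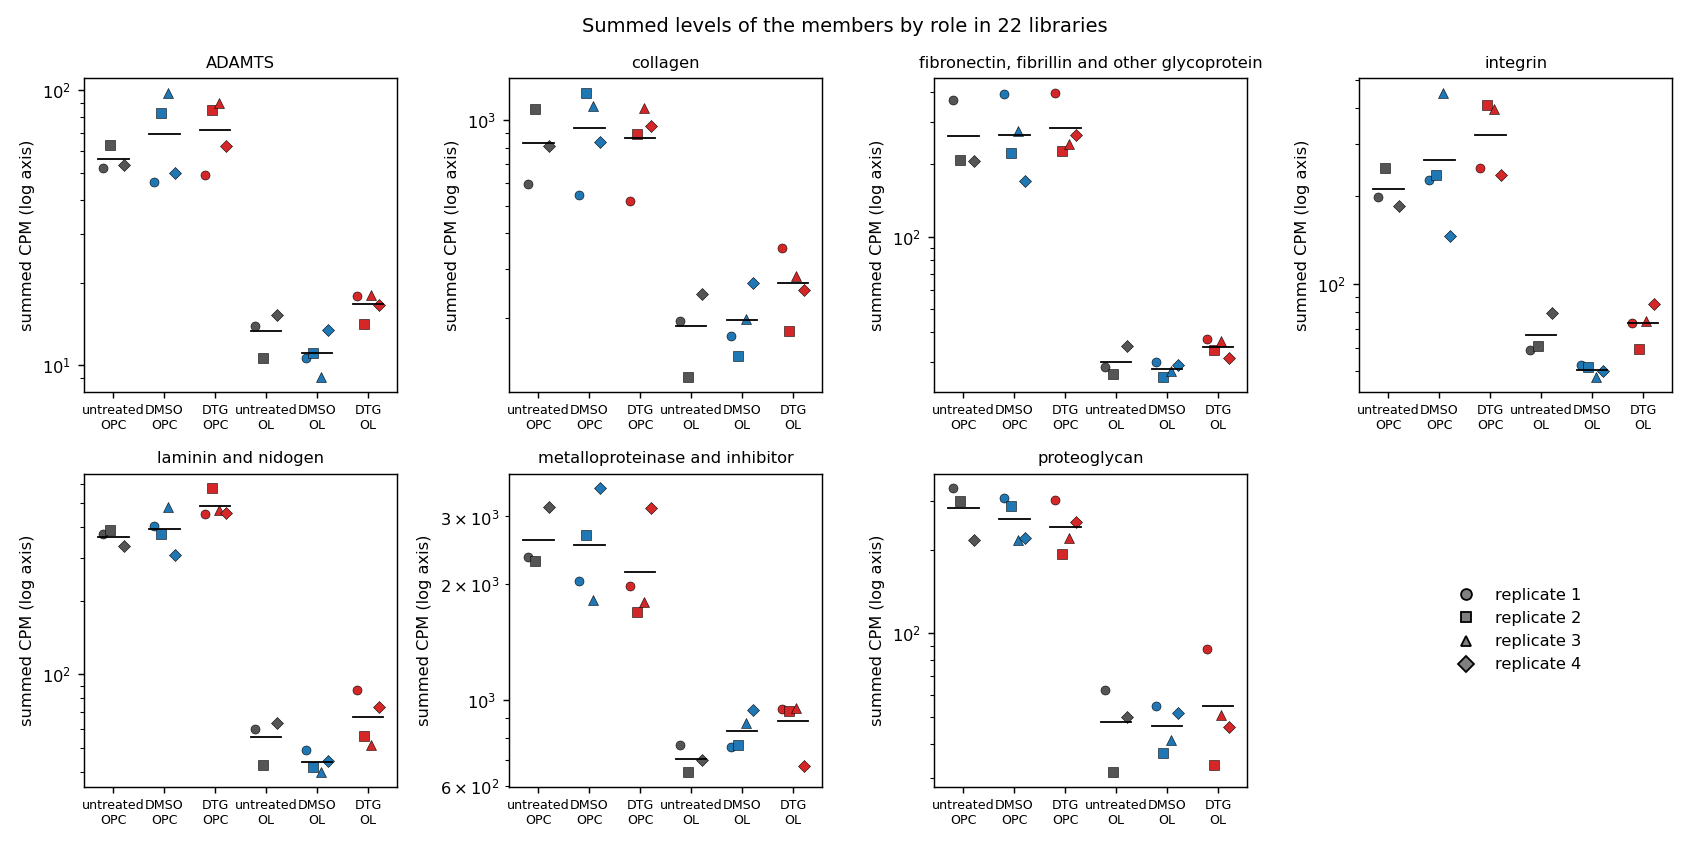
Summed CPM of the members by role (log axes) in each library, with a black line at the mean of each group and a symbol for each replicate number. OL libraries lie below the OPC libraries of the same treatment in every panel, and the metalloproteinase panel, led by Mmp15, holds the highest sums.

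**Figure D2:**
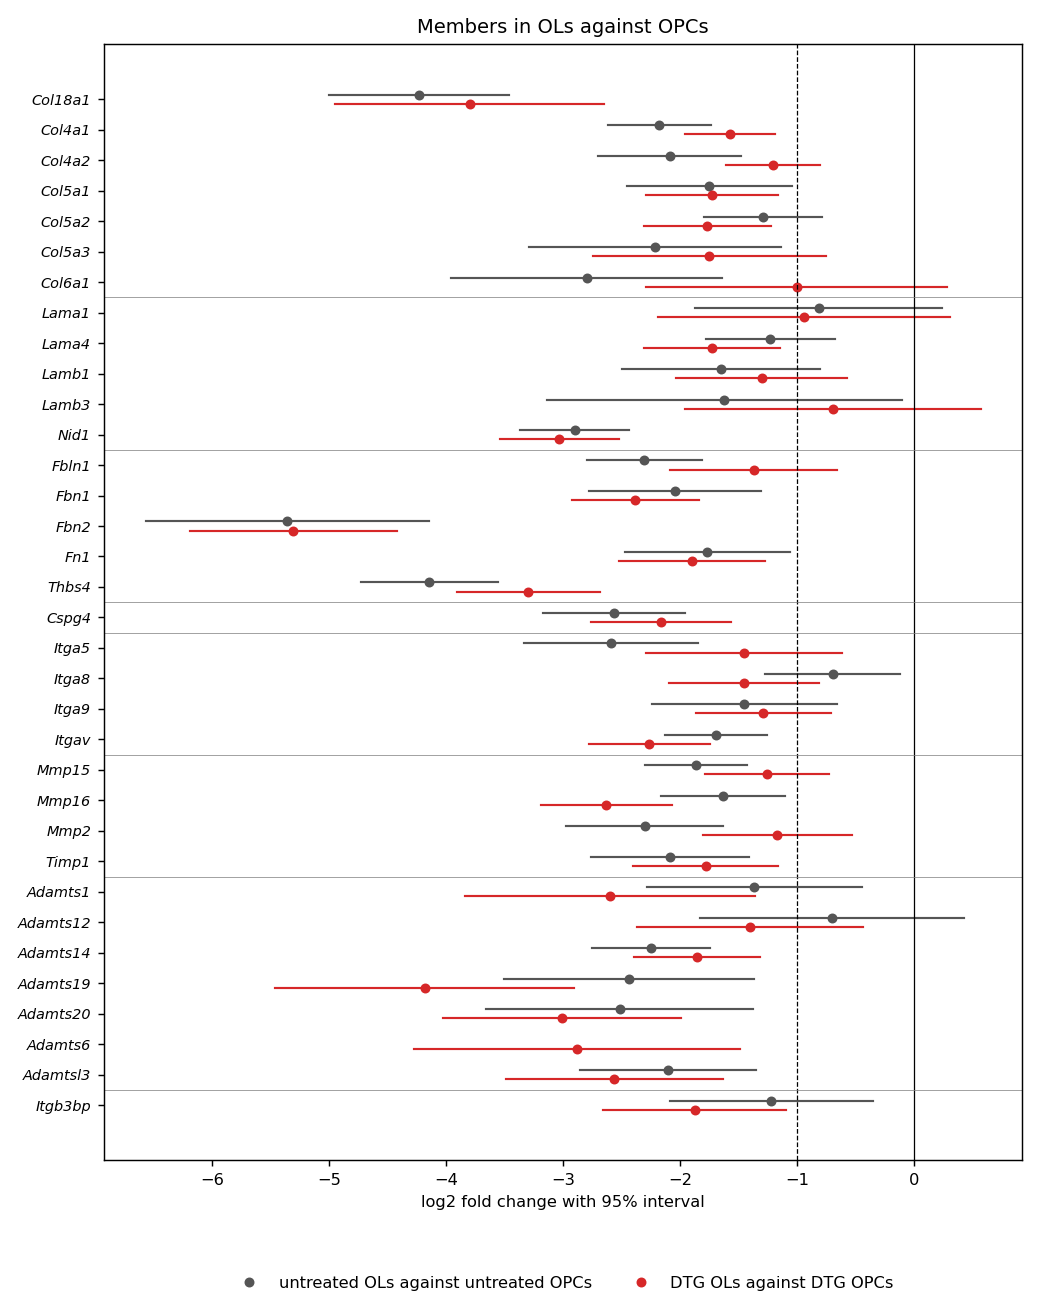
Log2 fold changes of OLs against OPCs for each member with 95% intervals, in untreated cells (grey) and DTG-treated cells (red), with lines at 0 and -1 and members grouped by role. All points lie below 0, from -5.36 for Fbn2 to -0.70 for Itga8 in untreated cells.

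Every collagen among the members was called lower in untreated OLs (7 of 7) and 6 of 7 with DTG, with log2 fold changes from -4.23 to -1.29 and from -3.80 to -1.01. Levels are CPM (library-scaled counts, with TMM factors over 22 libraries), given for replicates 1, 2 and 4 of the untreated groups and 1 to 4 of the DTG-treated groups. Col4a1 measured 208, 149.8 and 160.1 CPM in the untreated OPCs and 41.9, 31.4 and 41.8 CPM in the untreated OLs, and fell by 2.18 ± 0.20 on the log2 scale (4.52-fold, adjusted p = 3.25e-05). Under DTG, Col4a1 measured 194, 144, 153 and 203 CPM in OPCs and 71.2, 49.5, 58.2 and 56.4 CPM in OLs, and fell by 1.57 ± 0.18 (adjusted p = 3.23e-05). The OL libraries lay below every OPC library of the same treatment. In the untreated cells Col4a2 went from 81.1, 83.7 and 87.7 CPM in OPCs to 22.6, 10.98 and 25.6 CPM in OLs, a log2 change of -2.09 ± 0.27 (adjusted p = 2.89e-04). With DTG the levels were 77.7, 75.5, 87.1 and 112 CPM in OPCs and 39.6, 32.7, 46.6 and 34.3 CPM in OLs, a log2 change of -1.21 ± 0.18 (adjusted p = 2.28e-04). Col4a2 ran at about the same levels in OPCs of all treatments, between 75.5 and 112 CPM.

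Col18a1, which encodes the basement membrane collagen that gives rise to endostatin, showed the largest fall of the collagens in both sets. Col18a1 stood at 27.7, 61.4 and 56.8 CPM in untreated OPCs against 1.98, 2.43 and 3.27 CPM in untreated OLs (log2 fold change -4.23 ± 0.34, adjusted p = 1.94e-05). DTG-treated OPCs had 25.04, 66.03, 69.9 and 65.9 CPM and DTG-treated OLs 2.14, 2.64, 9.48 and 2.05 CPM of it (log2 fold change -3.80 ± 0.53, adjusted p = 1.33e-04). Its OPC level was lowest in replicate 1 of each treatment, and in OLs replicate 3 of the DTG-treated cells was the highest. Col5a1, a fibrillar collagen chain that joins collagen fibrils, fell less. Col5a1 measured 49.3, 123 and 53.6 CPM in the untreated OPCs and 23.3, 22.4 and 21.5 CPM in the untreated OLs, and fell by 1.75 ± 0.32 on the log2 scale (3.37-fold, adjusted p = 0.00196). Under DTG, Col5a1 measured 45.9, 109, 111 and 81.4 CPM in OPCs and 26.04, 31.4, 23.1 and 24.8 CPM in OLs, and fell by 1.73 ± 0.26 (adjusted p = 2.14e-04). The groups did not overlap. The other fibrillar chains were also lower, Col5a2 by 1.29 ± 0.22 and 1.77 ± 0.25 and Col5a3 by 2.22 ± 0.48 and 1.75 ± 0.46 (untreated and DTG). For Col5a3 the DTG-treated groups overlapped, since OL replicate 1 at 202 CPM lay above OPC replicate 1 at 140.3 CPM. Col6a1, a chain of the beaded collagen VI, fell by 2.80 ± 0.52 in untreated cells (adjusted p = 0.00226) and had a log2 fold change of -1.01 ± 0.59 with DTG (adjusted p = 0.155), where DTG-treated OL replicate 3 reached 5.72 CPM against 0.844 to 1.92 CPM in the other DTG-treated OLs. Without that library Col6a1 was called with DTG too.

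Of the laminin and nidogen genes 3 of 5 were called lower in each set. Nid1 had the largest fall of them. Nid1 measured 349, 364 and 312 CPM in the untreated OPCs and 49.9, 33.5 and 53.98 CPM in the untreated OLs, and fell by 2.90 ± 0.21 on the log2 scale (7.48-fold, adjusted p = 1.06e-05). Under DTG, Nid1 measured 429, 559, 433 and 434 CPM in OPCs and 76.95, 47.4, 37.9 and 66.5 CPM in OLs, and fell by 3.04 ± 0.23 (adjusted p = 2.84e-06). Its OPC and OL levels were separated by a wide gap in every treatment. Lamb1, the beta 1 chain found in many laminins, was also called in both sets. In the untreated cells Lamb1 went from 7.24, 5.62 and 5.45 CPM in OPCs to 1.23, 1.43 and 3.104 CPM in OLs, a log2 change of -1.65 ± 0.38 (adjusted p = 0.00708). With DTG the levels were 6.91, 6.23, 11.6 and 6.12 CPM in OPCs and 2.29, 3.34, 4.74 and 2.23 CPM in OLs, a log2 change of -1.30 ± 0.34 (adjusted p = 0.00573). Replicate 3 was the highest library among the DTG-treated OPCs and among the DTG-treated OLs, and the groups did not overlap. Lama4, an alpha chain of vascular laminins, fell by 1.23 ± 0.25 in untreated cells and 1.73 ± 0.27 with DTG.

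Lama1, the alpha chain of the first described laminin, was below 5 CPM in every library. It measured 1.73, 2.75 and 1.26 CPM in untreated OPCs and 0.547, 1.01 and 1.66 CPM in untreated OLs, with a log2 fold change of -0.82 ± 0.47 (adjusted p = 0.203). With DTG it measured 1.12, 1.82, 4.47 and 1.73 CPM in OPCs and 0.664, 0.528, 2.71 and 0.844 CPM in OLs, with a log2 fold change of -0.94 ± 0.57 (adjusted p = 0.1698). The groups overlapped in both sets, and DTG-treated OL replicate 3 was the highest OL library. Lama1 was called with DTG without that library, with the replicate block and under ERCC scaling. Lamb3, an epithelial laminin chain, had log2 fold changes of -1.62 ± 0.68 (adjusted p = 0.0864) and -0.70 ± 0.58 (adjusted p = 0.3100), below 2 CPM in every library. It was called in untreated cells with the replicate block, without OPC replicate 2 and without OL replicate 1, and with DTG under ERCC scaling and without the 3 libraries that stood apart.

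The fibrillin, fibronectin and thrombospondin genes were called in full, 5 of 5 in each set, and Fbn2 had the largest fall of the members in both. Fbn2 encodes fibrillin 2, a microfibril protein of developing tissue. Fbn2 measured 234, 53.6 and 108 CPM in the untreated OPCs and 3.35, 2.096 and 4.102 CPM in the untreated OLs, and fell by 5.36 ± 0.54 on the log2 scale (41.05-fold, adjusted p = 5.85e-05). Under DTG, Fbn2 measured 271, 97.7, 86.1 and 147 CPM in OPCs and 4.87, 2.46, 4.06 and 3.86 CPM in OLs, and fell by 5.31 ± 0.41 (adjusted p = 2.81e-06). No OL library exceeded 4.87 CPM, and no OPC library was under 53.6 CPM. Fbn1 encodes the related fibrillin 1. Fbn1 stood at 29.6, 17.98 and 17.9 CPM in untreated OPCs against 4.79, 3.44 and 7.54 CPM in untreated OLs (log2 fold change -2.05 ± 0.33, adjusted p = 0.00101). DTG-treated OPCs had 30.6, 24.1, 25.5 and 21.3 CPM and DTG-treated OLs 4.72, 4.22, 3.61 and 6.995 CPM of it (log2 fold change -2.38 ± 0.25, adjusted p = 2.06e-05). It fell less than Fbn2 and the groups did not overlap. An opposite-strand gene with a mean of 2.23 counts a library shares 95 bases with it.

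Thbs4 encodes thrombospondin 4, a secreted adhesive glycoprotein. Thbs4 measured 40.6, 30.5 and 27.4 CPM in the untreated OPCs and 1.57, 2.35 and 1.72 CPM in the untreated OLs, and fell by 4.15 ± 0.26 on the log2 scale (17.7-fold, adjusted p = 7.04e-06). Under DTG, Thbs4 measured 40.1, 25.98, 32.5 and 30.7 CPM in OPCs and 4.35, 3.43, 3.61 and 1.87 CPM in OLs, and fell by 3.30 ± 0.28 (adjusted p = 5.51e-06). All OL libraries were at or below 4.35 CPM, with DTG-treated replicates 1, 2 and 3 the highest of them. Fn1 encodes fibronectin, the ligand of several integrins. In the untreated cells Fn1 went from 37.2, 77.3 and 32.04 CPM in OPCs to 13.3, 12.8 and 16.9 CPM in OLs, a log2 change of -1.77 ± 0.32 (adjusted p = 0.00185). With DTG the levels were 32.6, 65.7, 90.01 and 44.04 CPM in OPCs and 16.5, 14.5, 17.5 and 14.2 CPM in OLs, a log2 change of -1.90 ± 0.28 (adjusted p = 2.17e-04). Replicates 2 and 3 had higher Fn1 than replicates 1 and 4 in OPCs, and in OLs all libraries lay between 11.5 and 17.5 CPM. Fbln1, the elastic fibre protein fibulin 1, fell by 2.31 ± 0.22 in untreated cells and 1.37 ± 0.33 with DTG.

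Cspg4 is both a matrix proteoglycan and the NG2 marker of OPCs. Cspg4 measured 335, 299.6 and 217 CPM in the untreated OPCs and 62.6, 31.4 and 50.05 CPM in the untreated OLs, and fell by 2.57 ± 0.27 on the log2 scale (5.93-fold, adjusted p = 7.80e-05). Under DTG, Cspg4 measured 304, 193, 221 and 252 CPM in OPCs and 87.7, 33.6, 50.9 and 45.8 CPM in OLs, and fell by 2.17 ± 0.27 (adjusted p = 7.37e-05). The OPC libraries of every treatment lay at or above 193 CPM and every OL library at or below 87.7 CPM.

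**Figure D3:**
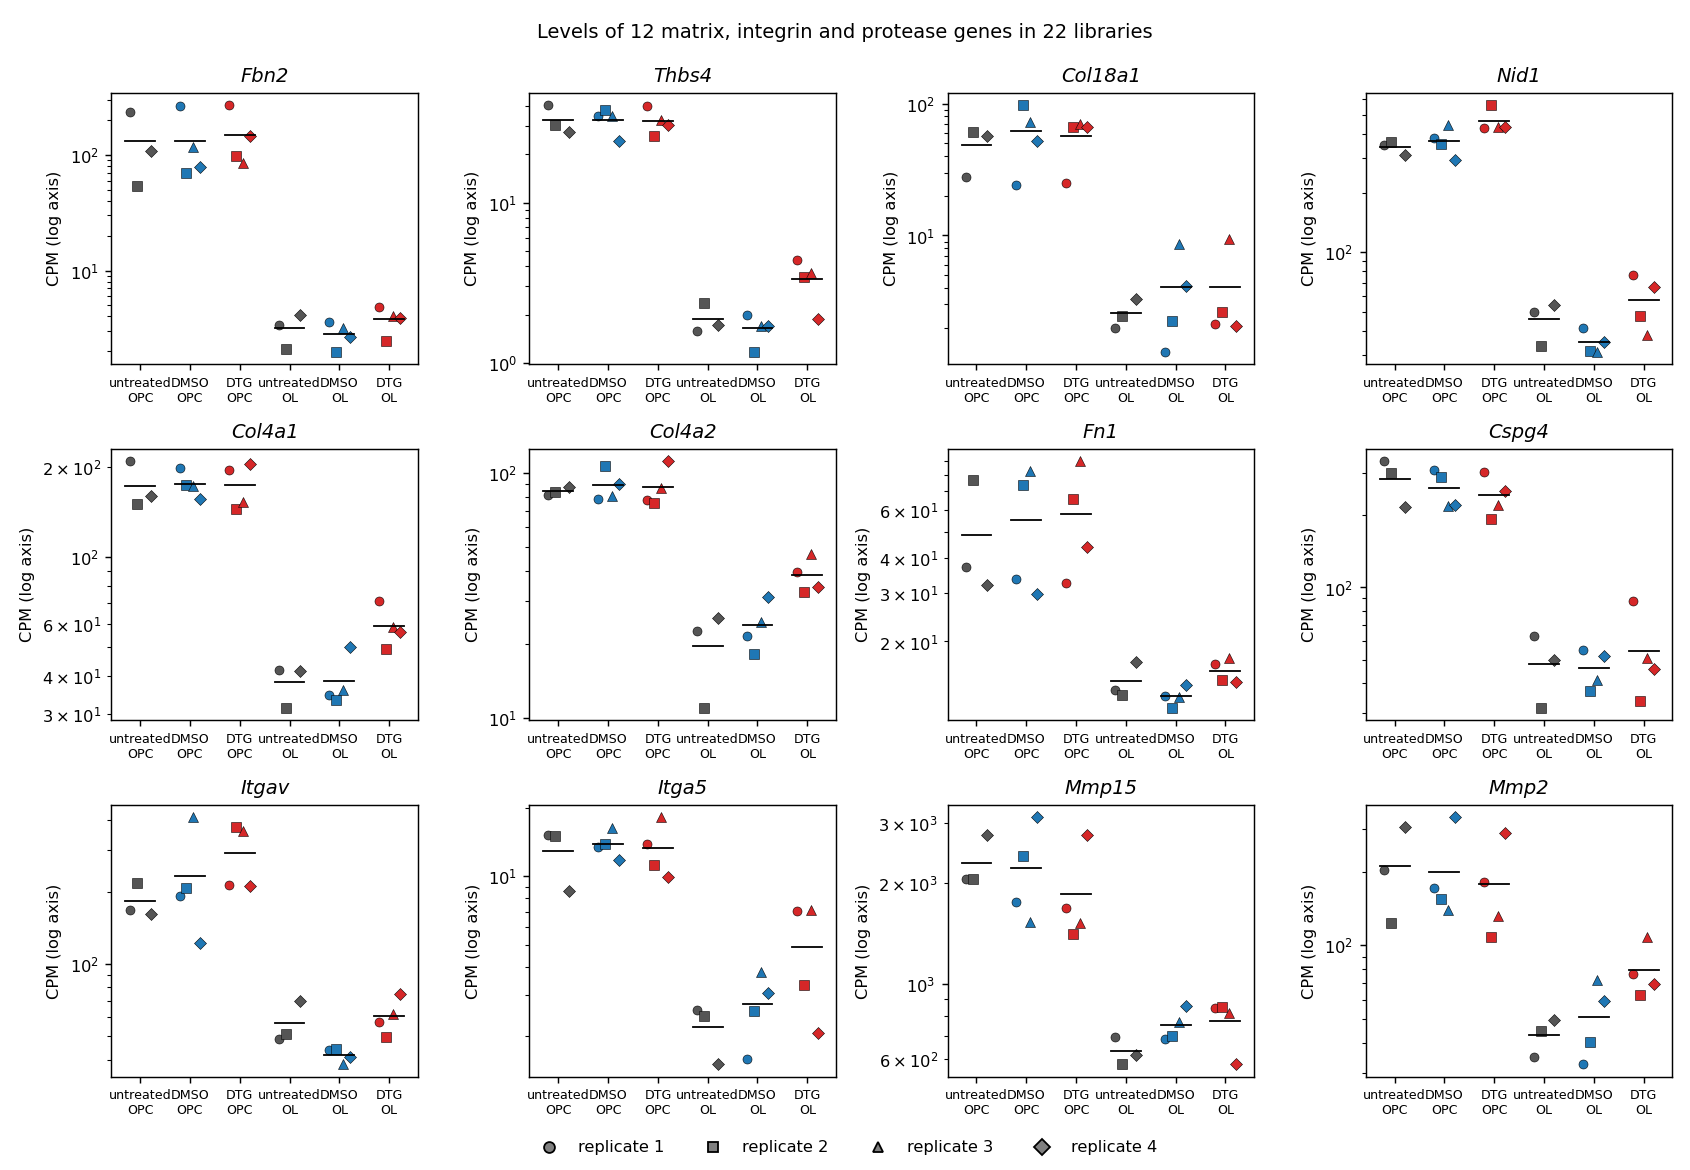
Levels of 12 members (CPM, log axes) in each of 22 libraries, with group means as black lines and a symbol for each replicate number. OL libraries lie below the OPC libraries of the same treatment in each panel, by very little for Mmp2 with DTG. DTG-treated OLs lie above all untreated OLs for Col4a1, Col4a2 and Mmp2.

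Of the 4 integrin alpha chains 3 were called lower in untreated cells and 4 with DTG. Itgav encodes the alpha V chain, which pairs with several beta chains and binds fibronectin and vitronectin. Itgav measured 168, 218 and 162 CPM in the untreated OPCs and 48.8, 51.2 and 70.2 CPM in the untreated OLs, and fell by 1.69 ± 0.19 on the log2 scale (3.23-fold, adjusted p = 1.29e-04). Under DTG, Itgav measured 215, 375, 359.7 and 213 CPM in OPCs and 57.5, 49.9, 62.1 and 74.8 CPM in OLs, and fell by 2.26 ± 0.23 (adjusted p = 2.01e-05). The OPC level of DTG-treated replicates 2 and 3 and of DMSO-treated replicate 3 (409 CPM), the libraries that stood apart, was well above that of the other OPCs. Itga5 encodes the alpha chain of the fibronectin receptor. In the untreated cells Itga5 went from 15.1, 15.04 and 8.64 CPM in OPCs to 2.599, 2.43 and 1.496 CPM in OLs, a log2 change of -2.59 ± 0.33 (adjusted p = 2.60e-04). With DTG the levels were 13.9, 11.1, 18.1 and 9.97 CPM in OPCs and 7.01, 3.34, 7.07 and 2.05 CPM in OLs, a log2 change of -1.46 ± 0.38 (adjusted p = 0.006598). The groups did not overlap, and DTG-treated OL replicates 1 and 3 were the highest OLs.

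Itga9, whose product binds tenascin and osteopontin, was lower in both sets. Itga9 stood at 4.68, 7.68 and 5.85 CPM in untreated OPCs against 2.599, 1.26 and 2.72 CPM in untreated OLs (log2 fold change -1.45 ± 0.36, adjusted p = 0.009796). DTG-treated OPCs had 5.54, 6.29, 7.997 and 5.23 CPM and DTG-treated OLs 3.099, 2.11, 2.18 and 2.89 CPM of it (log2 fold change -1.29 ± 0.26, adjusted p = 0.00153). The groups did not overlap. Itga8, whose product binds nephronectin, had the smallest fold change of the tested members in untreated cells. In the untreated cells Itga8 went from 10.8, 7.43 and 7.64 CPM in OPCs to 4.99, 6.21 and 4.93 CPM in OLs, a log2 change of -0.70 ± 0.26 (adjusted p = 0.0579). With DTG the levels were 14.6, 16.7, 10.8 and 7.91 CPM in OPCs and 5.53, 4.31, 3.24 and 5.37 CPM in OLs, a log2 change of -1.45 ± 0.29 (adjusted p = 0.001402). It was called with DTG and not in untreated cells, where its levels did not overlap and where it was called when untreated replicate 3, counted on another annotation, was kept; the difference of these changes was not called (adjusted p = 0.278).

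All 4 genes of the metalloproteinase group were called lower in both sets. Mmp15, a membrane-type metalloproteinase, was by far the most abundant member, with 49.2% of the members' summed CPM in untreated OPCs and 57.2% in untreated OLs. Mmp15 measured 2045, 2044 and 2769.6 CPM in the untreated OPCs and 696, 579 and 616 CPM in the untreated OLs, and fell by 1.86 ± 0.20 on the log2 scale (3.64-fold, adjusted p = 7.36e-05). Under DTG, Mmp15 measured 1686, 1407, 1515 and 2767 CPM in OPCs and 848, 856, 817 and 577 CPM in OLs, and fell by 1.26 ± 0.24 (adjusted p = 0.00103). Replicate 4 was the highest OPC library of each treatment. Mmp16, another membrane-type metalloproteinase, was lower in both sets. Mmp16 stood at 76.2, 66.7 and 58.9 CPM in untreated OPCs against 24.7, 14.3 and 26.2 CPM in untreated OLs (log2 fold change -1.63 ± 0.24, adjusted p = 5.59e-04). DTG-treated OPCs had 87.5, 123, 95.4 and 63.6 CPM and DTG-treated OLs 18.6, 9.32, 15.3 and 16.8 CPM of it (log2 fold change -2.63 ± 0.26, adjusted p = 1.34e-05). The groups did not overlap.

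Mmp2 encodes the gelatinase that cuts basement membrane collagen. Mmp2 measured 203, 124 and 306 CPM in the untreated OPCs and 34.9, 44.5 and 49.3 CPM in the untreated OLs, and fell by 2.31 ± 0.30 on the log2 scale (4.94-fold, adjusted p = 2.76e-04). Under DTG, Mmp2 measured 181, 109, 132 and 289 CPM in OPCs and 76.1, 62.5, 108 and 69.5 CPM in OLs, and fell by 1.17 ± 0.29 (adjusted p = 0.00474). Replicate 4 was again the highest OPC library of each treatment, and the groups did not overlap. With DTG they nearly touched, at 108.5 CPM in OL replicate 3 and 108.7 CPM in OPC replicate 2. Without DTG-treated OPC replicate 4, Mmp15 and Mmp2 were no longer called with DTG. Timp1 encodes an inhibitor of these proteases. In the untreated cells Timp1 went from 24.1, 60.9 and 45.1 CPM in OPCs to 10.7, 10.98 and 9.09 CPM in OLs, a log2 change of -2.09 ± 0.30 (adjusted p = 5.46e-04). With DTG the levels were 24.9, 52.7, 57.6 and 38.4 CPM in OPCs and 8.71, 12.7, 16.3 and 13.03 CPM in OLs, a log2 change of -1.78 ± 0.28 (adjusted p = 3.26e-04). Replicate 1 was the lowest OPC library of each treatment.

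Of the 7 ADAMTS genes 5 were called lower in untreated cells and 7 with DTG. Adamts1, which cuts proteoglycans such as versican, was weakly expressed. Adamts1 stood at 2.39, 2.75 and 1.595 CPM in untreated OPCs against 1.23, 0.587 and 0.776 CPM in untreated OLs (log2 fold change -1.37 ± 0.41, adjusted p = 0.0252). DTG-treated OPCs had 3.05, 6.01, 10.98 and 2.005 CPM and DTG-treated OLs 1.62, 0.4398, 0.903 and 0.663 CPM of it (log2 fold change -2.60 ± 0.57, adjusted p = 0.00223). The groups did not overlap, and DTG-treated OPC replicates 2 and 3 were the highest. In untreated cells the call was lost without OPC replicate 1 or 2, without OL replicate 2 or 4, and under ERCC scaling. Adamts14, which trims the amino end of procollagens, fell by 2.25 ± 0.23 and 1.86 ± 0.25. Adamts19 fell by 2.44 ± 0.48 and 4.18 ± 0.58, Adamts20 by 2.52 ± 0.51 and 3.01 ± 0.47, and the ADAMTS-like Adamtsl3 by 2.10 ± 0.34 and 2.57 ± 0.42. Adamts6 fell by 2.88 ± 0.64 and Adamts12 by 1.40 ± 0.44 with DTG. The nuclear Itgb3bp fell by 1.22 ± 0.39 in untreated cells (adjusted p = 0.0313) and 1.88 ± 0.36 with DTG, and the untreated call was lost without any one of the OPC libraries, without OL replicate 2 or 4, and under ERCC scaling.

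Levels of different genes were compared per kilobase of exon. In untreated OPCs Mmp15 was highest at 571 ± 105 CPM per kb (mean ± SD, n = 3), followed by Mmp2 (68.7 ± 29.7), Col5a3 (67.5 ± 36.4), Nid1 (59.99 ± 4.74), Timp1 (58.6 ± 24.9) and Itgav (55.97 ± 9.41). The means from Mmp2 to Itgav differed by less than the SD of Mmp2. In untreated OLs Mmp15 was again first at 157 ± 14.9 CPM per kb, and Itgav, Col5a3, Mmp2 and Timp1 followed between 13.8 and 17.4. Fbn2 went from rank 11 of the 34 members in untreated OPCs to rank 24 in untreated OLs.

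In the DMSO-treated cells, on which the members were chosen, the 33 tested members had log2 fold changes from -5.54 (Fbn2) to -1.43 (Itgb3bp), and this is given as a description. Of all 13023 genes 18.3% were called lower and 14.0% higher in that comparison. Fbn2 measured 265, 69.7, 119 and 78.6 CPM in DMSO-treated OPCs and 3.58, 1.97, 3.15 and 2.64 CPM in DMSO-treated OLs. Col4a1 measured 197, 174, 172 and 156 CPM and 34.7, 33.5, 36.1 and 50.1 CPM. The members nearest to the threshold of 1 on the inside were Itgb3bp, Lama4 (-1.44) and Itga8 (-1.52), and no matrix gene on the outside could be named. Lamb3 was too low to be tested there.

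Other matrix-related genes could be named only where the study's tables give their symbol, which again favours genes that fell in DMSO-treated OLs. Counts of those called lower are therefore largely fixed by the naming and are given as a description. Of all 13110 genes tested in untreated cells 11.7% were called lower. Of 30 genes for hyaluronan, proteoglycans and link proteins 8 were named, and 6 of these were called lower and none higher in untreated OLs. They include Has3, a hyaluronan synthase, which fell by 3.28 ± 0.66, Sdc1, a cell surface syndecan, by 2.55 ± 0.30, and Chst7, a sulphotransferase of chondroitin chains, by 1.99 ± 0.31. Of 27 matrix glycoproteins and linkers 6 were named and 5 called lower, led by Emilin3 (-3.65 ± 0.37), Emilin2 (-3.46 ± 0.61) and Egflam (-2.04 ± 0.56), whose products sit in elastic fibres or link dystroglycan to matrix. Of 13 plasminogen and ADAM genes 3 were named and 2 called lower, Plau, the urokinase, by 6.15 ± 0.98 and Adam12 by 3.62 ± 0.23. Of 21 integrin adhesion genes 6 were named and 3 called lower, namely Fblim1 (-2.99 ± 0.42), Parva (-1.69 ± 0.19) and Ptk2, the focal adhesion kinase (-1.04 ± 0.16). Of 18 TGF-beta and related genes 5 were named and 3 called lower, Tgfbr2 (-1.83 ± 0.26), Ctgf (adjusted p = 0.0171) and Tead1 (-1.09 ± 0.23). Of 19 collagen processing genes 3 were named, and Plod2, a lysyl hydroxylase, was called lower (-1.17 ± 0.30).

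Markers of other cells could also be named mostly where they fell in the DMSO-treated cells, so counts of those called lower are largely fixed by the naming and are given as a description. Of 14 fibroblast, pericyte and smooth muscle markers 4 were named and all 4 were called lower in untreated OLs. The most abundant, Acta2, had 71.02, 6.93 and 54.4 CPM in untreated OPCs and 0.889, 0.671 and 0.776 CPM in untreated OLs, and Rgs5, Anpep and Myh11 reached at most 7.46 CPM in any OPC library. Defining markers such as Pdgfrb, Col1a1 and Dcn could not be named. Of 10 neuron markers 6 were named and 4 called lower, among them Gad1 with 21.4, 14.1 and 48.1 CPM in untreated OPCs and 2.804, 0.922 and 2.27 CPM in untreated OLs. The part of these cells in the fall of the members was not tested.

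DTG-treated OLs were compared with both other kinds of OL. No member was called in DTG-treated against DMSO-treated OLs with edgeR (30 tested, 0.559% of all 12710 genes called) nor against untreated OLs (31 tested, 0.341% of all 12886 genes called), and DESeq2 called none either. At an unadjusted p under 0.05, 7 members differed in each comparison, each of them higher with DTG, where 12.5% and 12.3% of all genes were under it. The count against untreated OLs was 0 under ERCC scaling (143 of 12886 genes) and 3 without DTG-treated replicate 3 (1016 of 12754 genes). It was 4 without DTG-treated replicate 1 (1670 of 12823 genes) or untreated replicate 1 (1017 of 13073 genes). Without DTG-treated replicate 4 it was 9 (2426 of 12761 genes). With untreated replicate 3 kept, on the identifiers shared by both annotations, it was 5 (1450 of 11909 genes). Members were chosen for low values in the same DMSO-treated OLs, which favours higher values in DTG-treated OLs against them, so the comparison with DMSO is a description and its adjusted p-values are not given by member. Both comparisons share the DTG-treated OLs, and their values stand side by side. The median log2 fold change was 0.34 over the 30 members against DMSO and 0.25 over the 31 against untreated, and over all genes it was 0.01 and -0.01. Under ERCC scaling the member medians were 0.76 and 0.10, beside 0.44 and -0.11 over all genes. Leaving out single libraries moved the member median against untreated between 0.14 (without DTG-treated replicate 1) and 0.35 (without untreated replicate 1).

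Both collagen IV genes were among those 7 in each comparison. Fold changes below are given against DMSO first and then against untreated, with the adjusted p of the latter. Col4a1 measured 71.2, 49.5, 58.2 and 56.4 CPM in DTG-treated OLs, 34.7, 33.5, 36.1 and 50.1 CPM in DMSO-treated OLs and 41.9, 31.4 and 41.8 CPM in untreated OLs. Its log2 fold changes were 0.61 ± 0.17 against DMSO and 0.61 ± 0.17 against untreated (adjusted p = 0.205). DMSO-treated replicate 4 reached into the range of the DTG-treated OLs, and the untreated OLs lay wholly below it. Col4a2 measured 39.6, 32.7, 46.6 and 34.3 CPM with DTG, 21.6, 18.3, 24.6 and 31.3 CPM with DMSO and 22.6, 10.98 and 25.6 CPM untreated. Its log2 fold changes were 0.67 ± 0.19 and 0.95 ± 0.27 (adjusted p = 0.209), and the DTG-treated OLs lay above all other OLs.

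Mmp2 measured 76.1, 62.5, 108 and 69.5 CPM with DTG, 32.6, 40.2, 72.5 and 59.2 CPM with DMSO and 34.9, 44.5 and 49.3 CPM untreated. Its log2 fold changes were 0.63 ± 0.24 and 0.89 ± 0.21 (adjusted p = 0.142). Replicate 3 was the highest of the DMSO-treated and of the DTG-treated OLs, and the untreated OLs lay below all DTG-treated OLs. Nid1 measured 76.95, 47.4, 37.9 and 66.5 CPM with DTG, 41.4, 31.7, 31.2 and 35.02 CPM with DMSO and 49.9, 33.5 and 53.98 CPM untreated. Its log2 fold changes were 0.71 ± 0.21 and 0.32 ± 0.25 (adjusted p = 0.6404), and the groups overlapped.

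Thbs4 measured 4.35, 3.43, 3.61 and 1.87 CPM with DTG, 1.999, 1.17, 1.697 and 1.68 CPM with DMSO and 1.57, 2.35 and 1.72 CPM untreated. Its log2 fold changes were 1.00 ± 0.32 and 0.82 ± 0.34 (adjusted p = 0.378), and DTG-treated replicate 4 lay within the range of the other OLs. Itgav had log2 fold changes of 0.54 ± 0.15 and 0.11 ± 0.18 (adjusted p = 0.842). Adamts14 had 0.66 ± 0.22 and 0.55 ± 0.24. Against untreated OLs Itga5 (1.17 ± 0.45) and Col6a1 (1.68 ± 0.75) were also at an unadjusted p under 0.05. Itga5 measured 7.01, 3.34, 7.07 and 2.05 CPM with DTG and 2.599, 2.43 and 1.496 CPM untreated. Col6a1 measured 1.92, 0.968, 5.72 and 0.844 CPM with DTG and 0.957, 0.168 and 0.998 CPM untreated. Replicate 3 was the highest DTG-treated and DMSO-treated OL library for both genes (DMSO, 3.80 and 3.15 CPM), and the untreated group holds no replicate 3. DTG-treated OLs lay wholly above DMSO-treated OLs for 4 members (Adamts14, Col4a2, Fn1 and Itgav, background 3.89% of genes) and wholly above untreated OLs for 4 (Adamts14, Col4a1, Col4a2 and Mmp2, background 6.23%).

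In DTG-treated against untreated OLs the replicate numbers paired the libraries (correlations of 0.53 to 0.58 between same-numbered deviations from the group means). With the replicate number as a block no member passed both thresholds, but without the fold threshold, a setting chosen after seeing the data, 5 members had an adjusted p under 0.05, where 8.05% of all genes did. Col4a1 (0.61 ± 0.10, adjusted p = 0.00937), Mmp2 (0.69 ± 0.13, adjusted p = 0.0134), Col4a2 (0.89 ± 0.19, adjusted p = 0.0225) and Nid1 (0.47 ± 0.10, adjusted p = 0.0231) were higher and Mmp16 (-0.56 ± 0.13, adjusted p = 0.0357) was lower with DTG (log2, edgeR). The same setting gave 5 members against DMSO-treated OLs, a direction that the choice of members favours, where 4.91% of all genes passed. There same-numbered libraries correlated above 0.1 in 3 of 4 pairs. Under scaling to the ERCC spike-in the median of all genes moved to 0.44 against DMSO and -0.11 against untreated, and the log2 fold changes of Col4a1 became 1.05 and 0.46, with no member called.

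Of the 3 OL markers that could be named, edgeR called 1 lower with DTG against DMSO, and DESeq2, edgeR with no filter on low counts and edgeR with the replicate block called all 3. Mog, a myelin glycoprotein gene, was called lower in DTG-treated than in DMSO-treated OLs (-1.01 ± 0.16, adjusted p = 0.0116), with 26.6, 21.4, 21.4 and 20.4 CPM against 46.1, 51.9, 48.2 and 34.3 CPM. Mbp measured 2406, 4228, 4330.1 and 1701 CPM with DTG and 7409, 11395, 10236 and 4293 CPM with DMSO, which gave -1.40 ± 0.33 on the log2 scale (adjusted p = 0.0772). Enpp6 had -1.08 ± 0.31 (adjusted p = 0.131). In DESeq2 the adjusted p was 9.27e-04 for Mbp, 9.71e-06 for Mog and 0.0232 for Enpp6. Under ERCC scaling none of the 3 was called, and leaving out single libraries gave 0 or 1. Against untreated OLs none of the 3 was called with edgeR or DESeq2, and with the replicate block Mbp and Enpp6 were called lower. The edgeR log2 fold changes without the block were -1.10 ± 0.37 for Mbp (adjusted p = 0.2704), -0.83 ± 0.17 for Mog (adjusted p = 0.0798) and -0.84 ± 0.33 for Enpp6 (adjusted p = 0.334). In DTG-treated against DMSO-treated OLs the OPC marker Pdgfra had -0.26 ± 0.29 (adjusted p = 0.756) and Cspg4 0.23 ± 0.25. The part of the maturation state in the member values was not tested.

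**Figure D4:**
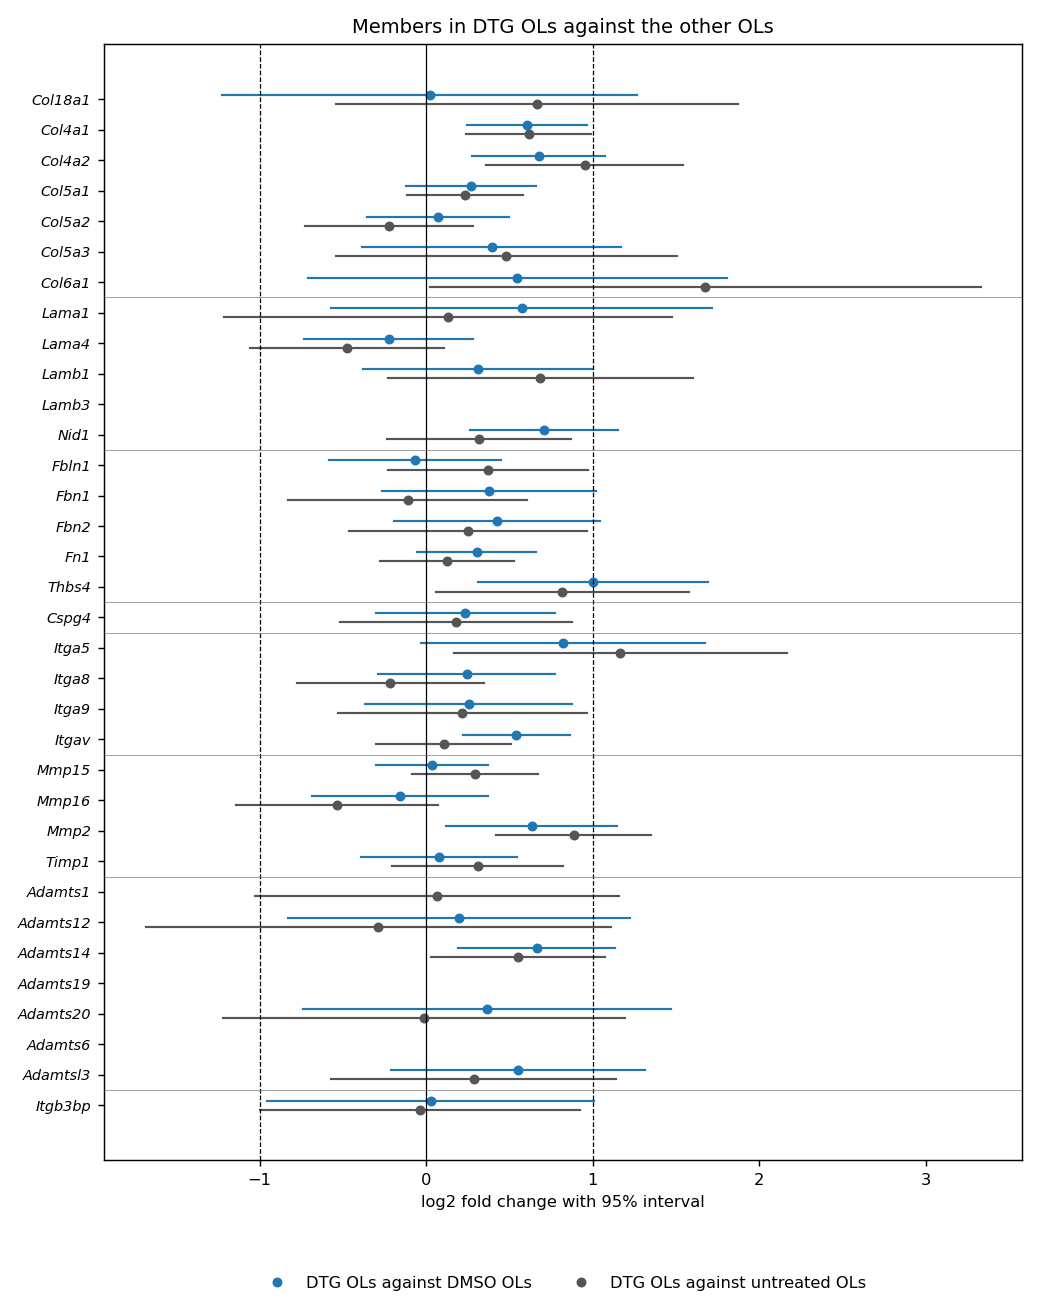
Log2 fold changes of the members in DTG-treated OLs against DMSO-treated OLs (blue) and against untreated OLs (grey), with 95% intervals and lines at -1, 0 and 1. Adamts14, Col4a1, Col4a2, Mmp2 and Thbs4 have both intervals above 0 without passing the adjusted threshold, and both comparisons share the DTG-treated libraries.

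After 24 hours of DTG, OPCs showed no called member. In DTG-treated against DMSO-treated OPCs none of the 34 members and 0.0% of the 13270 genes were called with edgeR, no member was under an unadjusted p of 0.05 (0.497% of genes were), and DESeq2 called no member. Without DMSO-treated replicate 3, 3 members and 869 of 13379 genes were under it, with the replicate block 2 members and 889 of 13270 genes, and without the 3 libraries that stood apart no member and 51 of 13311 genes. The DMSO-treated OPCs also served to choose the members, which favours lower values with DTG here. Log2 fold changes ran from -0.28 to 0.47 around a median of -0.01. Against untreated OPCs no member was called either (0.0% of 13388 genes), and Adamts1 (1.31 ± 0.56), Itgav (0.69 ± 0.25) and Nid1 (0.46 ± 0.16) were under an unadjusted p of 0.05, where 13.2% of genes were. Without the 3 libraries that stood apart, or without untreated replicate 4, no member was under it (173 of 13463 and 519 of 13662 genes). The first of these settings keeps only DTG-treated replicates 1 and 4, so its lower count may reflect fewer libraries. Without DTG-treated replicate 4, 9 members and 4770 of 13289 genes were under an unadjusted p of 0.05. In that setting 801 genes were called higher and 4 lower, none of them a member. Leaving out DTG-treated replicate 1 gave 5 members (1596 of 13250 genes) and replicate 2 gave 1 (686 of 13241 genes). The replicate block gave 5 members (2748 of 13388 genes), and ERCC scaling gave 16 (4489 of 13388 genes). With untreated replicate 3 kept, on the identifiers shared by both annotations, no member was under that p (173 of 12269 genes). The Itgav interval against untreated OPCs ran from 0.13 to 1.24 on the log2 scale, and its high values sat in the libraries that stood apart. Against DMSO the Itgav interval ran from -0.47 to 1.11 and the Col4a1 interval from -0.39 to 0.38, so changes within these bounds were not excluded.

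The vehicle comparisons also use the DMSO-treated libraries that chose the members, which favours lower values with DMSO in OLs and higher values in OPCs. The vehicle alone gave no called member in OLs (30 tested, 0.0% of 12893 genes) or OPCs (34 tested, 0.0% of 13244 genes) with edgeR or DESeq2. In OLs Itgav (-0.48 ± 0.15) and Nid1 (-0.44 ± 0.19) were at an unadjusted p under 0.05 (10.7% of genes were). The count in OLs was 0 without untreated replicate 4 (620 of 13066 genes) and under ERCC scaling (43 of 12893 genes). It was 5 without untreated replicate 2 (1964 of 13124 genes) and 4 without DMSO-treated replicate 1 (2582 of 12783 genes). Without DMSO-treated replicate 2, 3 or 4 it was 1 (1035 of 12775, 723 of 12831 and 793 of 12780 genes). In OPCs no member was under that p (0.589% of genes were), and none was without the 3 libraries that stood apart.

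Whether the stage change itself differed between DTG-treated and untreated cells was tested as an interaction over 14 libraries. No member and no gene was called (0.0% of 13834), with 6 members at an unadjusted p under 0.05 against 20.5% of genes. DESeq2 called 50 genes in the upward and 91 in the downward direction and no member. The largest of the 6 were Mmp2 (1.12 ± 0.46, adjusted p = 0.205) and Mmp16 (-1.004 ± 0.37, adjusted p = 0.1801), where a positive value is a smaller fall with DTG. Without the 3 libraries that stood apart no member and 1036 of 13943 genes were under that p, and the member median went from 0.03 to 0.34. That setting keeps only replicates 1 and 4 of the DTG-treated OPCs. Leaving out single libraries gave from 2 members under that p (without DTG-treated OL replicate 3) to 11 (without DTG-treated OL replicate 4). Beside these, 2211 of 13799 and 3580 of 13813 genes were under it. With untreated replicate 3 kept, on the identifiers shared by both annotations, 3 members and 484 of 12679 genes were under it. Without DTG-treated OPC replicate 4 Mmp2 and Mmp16 were called, beside 229 genes in the upward and 1242 in the downward direction.

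In OPCs some members varied with the replicate number. A test of the replicate number with treatment as covariate (edgeR, 11 libraries, called at an adjusted p under 0.05 and a spread over 1 on the log2 scale between the highest and lowest number), added after seeing the data, called 17 of the 34 members, where 18.3% of all 13666 genes were called. Without replicate 1 it called 4 members (Adamts1, Fn1, Col5a1 and Mmp2) and 3.07% of genes, without replicate 2 it called 18 and 26.2%, without replicate 3 it called 12 and 12.5%, without replicate 4 it called 11 and 4.86%, and without the 3 libraries that stood apart it called 11 and 14.1%. Per the study replicates come from independent litters, and the part of the litter in these differences was not tested.

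The members did not follow 1 pattern. Fbn2 was highest in replicate 1 of every treatment, at 234, 265 and 271 CPM in untreated, DMSO-treated and DTG-treated OPCs, against 53.6 to 147 CPM in the other OPCs (spread 1.87, adjusted p = 0.00198). Col5a3 was lowest there, at 189, 166 and 140.3 CPM against 408 to 667 CPM (spread 1.97, adjusted p = 2.74e-04). Col18a1 (spread 1.49, adjusted p = 0.00238) and Timp1 (spread 1.22, adjusted p = 0.00139) were also lowest in replicate 1.

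Fn1 was high in replicates 2 and 3, at 65.7 to 90.01 CPM, and low in replicates 1 and 4, at 29.7 to 44.04 CPM (spread 1.32, adjusted p = 0.00104). Mmp2 had the opposite order, with 172 to 334 CPM in replicates 1 and 4 and 109 to 154 CPM in replicates 2 and 3 (spread 1.30, adjusted p = 6.02e-04). The smooth muscle marker Acta2 was split in the same way as Mmp2, at 38.9 to 71.02 CPM in replicates 1 and 4 and 6.93 to 11.5 CPM in replicates 2 and 3, and its part in the Mmp2 values was not tested.

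**Figure D5:**
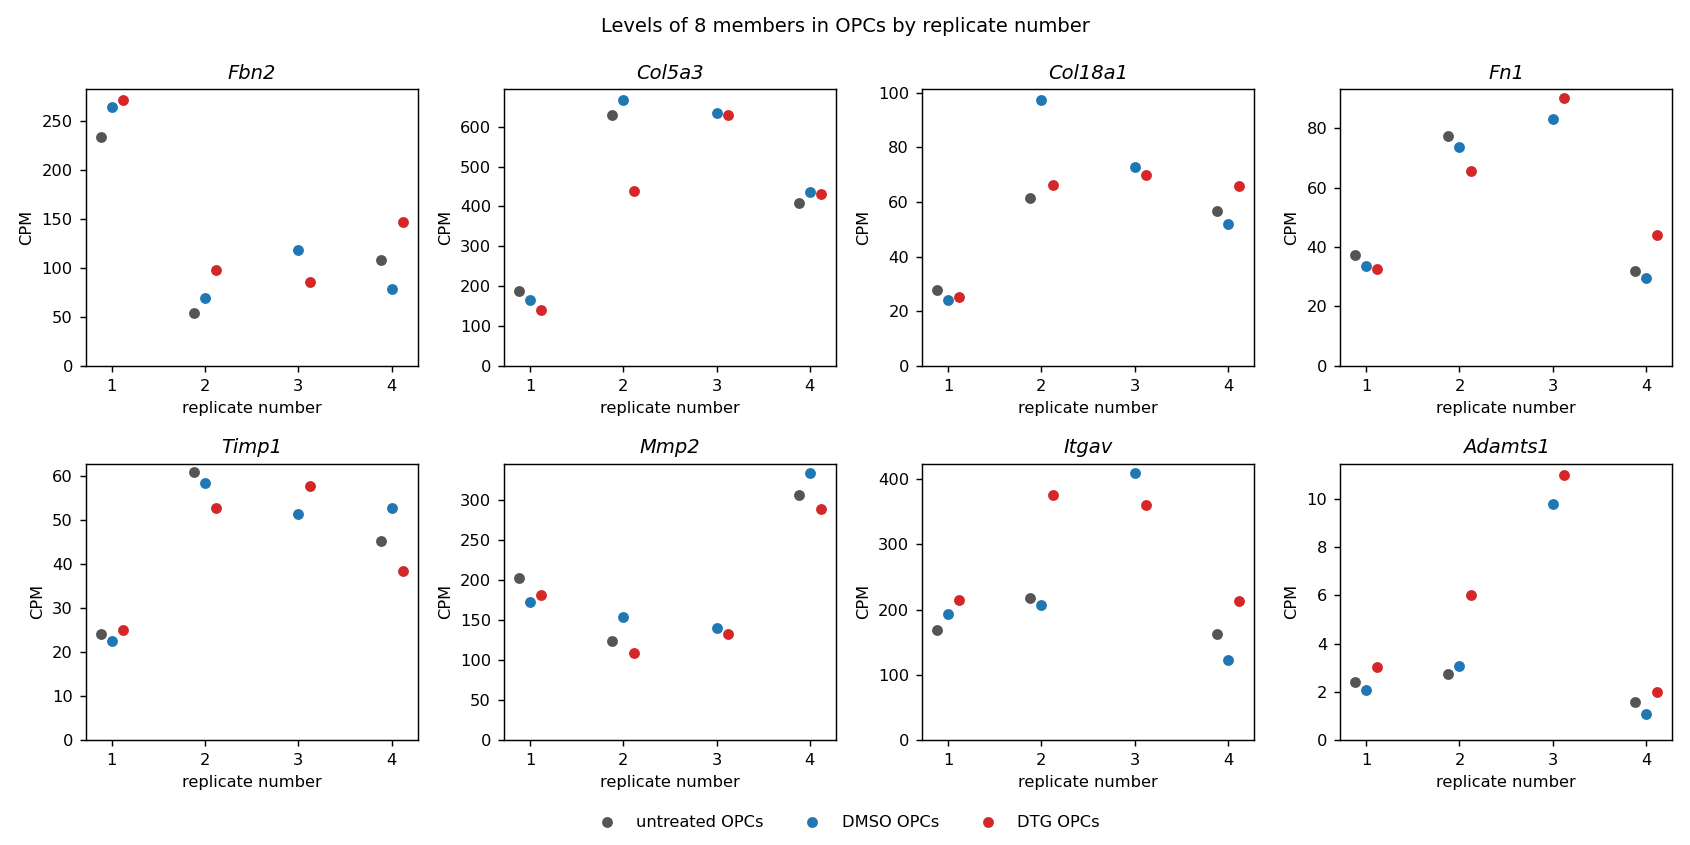
CPM of 8 members in the OPC libraries (vertical axes from 0) against the replicate number, coloured by treatment. Replicate 1 lies apart from the other OPCs for Fbn2 (highest) and Col5a3 (lowest), and same-numbered libraries lie near each other for Mmp2. Itgav and Adamts1 are high in DMSO-treated replicate 3 and DTG-treated replicates 2 and 3.

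In OLs the same test called 4 members, Col18a1, Cspg4, Col5a3 and Col6a1, where 5.98% of all 13140 genes were called. Leaving out replicates 1, 2, 3 and 4 in turn gave 3, 2, 2 and 4 members, beside 2.65%, 3.49%, 4.29% and 5.41% of genes. Col18a1 was highest in replicate 3, at 8.57 CPM with DMSO and 9.48 CPM with DTG against 1.31 to 4.103 CPM in the other OLs (spread 2.35, adjusted p = 0.00122). Cspg4 was lowest in replicate 2 of each treatment, at 31.4, 36.9 and 33.6 CPM (spread 1.02, adjusted p = 0.00338). Fbn2 had a spread of 0.87, adjusted p = 0.109 in OLs.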

How the data were processed

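Whole-transcriptome RNA-seq was analysed from the gene counts that the authors deposited, 1 table per library. The submitters' processing notes name bcl2fastq 2.20, STAR 2.5.2b, featureCounts (Subread 1.5.2) and the build Rnor_6.0. The counts are whole, unnormalised reads per gene, and the strand setting is not given in the sources used here. Untreated replicate 3 of both stages was counted on another annotation and was left out of the main comparisons.

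Library sizes excluded ERCC spike-in rows, which took 1.06% to 7.19% of counts. Each comparison was fitted on its own groups with edgeR 4.0.16 (R 4.3.3, limma 3.58.1, filterByExpr, TMM, quasi-likelihood test, Benjamini-Hochberg adjustment over all genes tested), and called at an adjusted p under 0.05 with an absolute log2 fold change over 1. Values after ± are standard errors for fold changes and SD for levels. DESeq2 1.42.0 (Wald test), which the study used, was an alternative, beside DESeq2 size factors, ERCC scaling, other filters, no fold threshold, a replicate block and leaving out each library. The members and lists were chosen with earlier results of these data known. By the rule for named genes, every member was accounted for, 21 were described by library, and at most the 3 largest called changes in each direction were named from each other list. The labels number the replicates without saying what a number shares. Deviations of same-numbered libraries correlated above 0.1 in every pair for DTG against untreated OLs (0.53 to 0.58) and OPCs (0.28 to 0.71), and for DMSO against untreated OLs (0.35 to 0.42) and OPCs (0.57 to 0.83), so there the numbers were taken to pair the libraries.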

Additional observations from a re-analysis of the deposited data

Results flagged for a closer look

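Of 84 groups of 4 libraries (21 members in 4 groups), 11 held a library set far from the other 3 by Dixon's 95% criterion, where chance gives about 1 in 20, or 4.2. Among OPCs, Col18a1 was low in DTG-treated replicate 1 (25.04 CPM), and Nid1 was high in DTG-treated replicate 2 (559 CPM). Lamb1 in DTG-treated replicate 3 (11.6 CPM) and Lama1 in DMSO-treated replicate 3 (4.89 CPM) were high. Mmp2 was high in DMSO-treated replicate 4 (334 CPM). Among OLs, replicate 3 with DTG was high for Col18a1 (9.48 CPM) and Lama1 (2.71 CPM), and replicate 3 with DMSO was high for Timp1 (15.4 CPM). Col4a1 was high in DMSO-treated replicate 4 (50.1 CPM) and Mmp16 in DMSO-treated replicate 1 (23.4 CPM). Mmp15 was low in DTG-treated replicate 4 (577 CPM).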

How the results depend on the processing

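Across the alternatives 27 to 30 members were called lower in untreated OLs and 29 to 34 in DTG-treated OLs, and no member value changed sign where it had been called. A tally of single-member values covered the untreated and DTG-treated stage comparisons and 7 members in each comparison of DTG-treated with other OLs. In it 1257 values kept their side of the threshold, 14 lost a call and 23 gained one. Other members and comparisons were not in this tally. Blocking on replicate number without a fold threshold, a setting chosen after seeing the data, gave adjusted p-values under 0.05 for 5 members in DTG-treated against DMSO-treated OLs (Nid1, Itgav, Col4a1, Mmp2 and Col4a2, where 4.91% of genes passed) and 5 against untreated OLs. The choice of members favours higher values against DMSO-treated OLs, so that count is a description. The block alone gave 30 members in untreated and 33 in DTG-treated stage comparisons and no called member in the other comparisons of treatments. Beside these, 1549 of 13110 genes were called lower in the untreated and 2871 of 13171 in the DTG-treated stage comparison. The block moved members under an unadjusted p of 0.05 from 3 to 5 in DTG-treated against untreated OPCs. Genes under that p went from 1766 to 2748 of 13388. Against DMSO-treated OPCs members went from 0 to 2, and genes from 66 to 889 of 13270. Genes called went from 45 higher and 26 lower to 95 and 73 in DTG-treated against DMSO-treated OLs, and from 35 and 9 to 95 and 59 against untreated OLs. In DTG-treated against DMSO-treated OLs same-numbered libraries correlated from -0.03 to 0.45, with 3 of 4 pairs above 0.1, and 6 of 8 libraries correlated best with their own number. The ranges were -0.15 to 0.86 in DTG-treated against DMSO-treated OPCs, -0.02 to 0.17 in the untreated and -0.40 to 0.37 in the DTG-treated stage comparison. Leaving out single libraries gave 0 to 2 members in the test of the difference of the stage changes. The 2 came beside 229 genes in the upward and 1242 in the downward direction. Leaving out a replicate number gave 4 to 18 members that varied with it in OPCs and 2 to 4 in OLs, and 11 in OPCs without the 3 libraries that stood apart. ERCC scaling moved the median of all genes to -0.53 in the untreated and -1.35 in the DTG-treated stage comparison, and the cause was not tested. Adamts6, Lamb3 and Lama1 had few counts, and their calls changed with the setting. Replicates were few, the purity of the cultures was not measured here, and most matrix genes outside the members could not be named.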
